A study of Mus musculus with 20 samples.

Results

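Gas6 (growth arrest specific gene 6) and Pros1 (protein S) encode the secreted ligands of the TAM receptors, which are encoded by Tyro3, Axl and Mertk. These 5 genes, of 55573 in the count tables, were read in mouse bone marrow, in haematopoietic stem cells (HSC) and in the multipotent progenitors called MPP, sorted into cells that carried or lacked leptin receptor protein (Lepr) on their surface. The family was selected on the counts of Gas6, which were higher in Lepr+ HSC than in Lepr- HSC, so all 5 genes are described and not tested between these 2 groups. The 4 groups, Lepr+ and Lepr- HSC and Lepr+ and Lepr- MPP, had 5 libraries each, all from C57BL/6 mice aged 7 to 9 weeks, with no treatment or allele named. Each sample pooled 2 mice and gave 1000 to 8000 cells. Cells with few lineage antigens that carried Sca-1 and c-Kit were sorted as HSC when they showed CD150 without CD48, and as MPP when they showed neither. Lepr status came from a biotin-coupled antibody.

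TAM receptors are tyrosine kinases. Gas6 and protein S carry an amino-terminal Gla domain, which vitamin K-dependent carboxylation enables to bind phosphatidylserine on dying or activated cells, and their carboxy-terminal domains bind the receptor. Gas6 binds all TAM receptors, whereas protein S binds Tyro3 and Mertk and is otherwise known as an anticoagulant cofactor of activated protein C. In marrow, TAM receptors are best known from macrophages and dendritic cells, where they drive uptake of dead cells and dampen interferon and Toll-like receptor signals. Gas6 is known as a product of stromal and vessel cells, and protein S as a constituent of platelets.

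The libraries held between 9532993 and 31589794 read-pair counts in genes. Levels are in CPM, read-pair counts relative to library sizes scaled by edgeR's TMM method, and n = 5 libraries for every mean ± SD. Summed CPM of 11 HSC markers was 2215 ± 167 in Lepr+ HSC and 1555 ± 249 in Lepr- HSC, with ranges that do not overlap (2029 to 2420 and 1194 to 1851). Of the 11, 9 had a positive log2 fold change and 2 were called, both higher in Lepr+ HSC, against 0.103% of all genes. Slamf1 averaged 41.3 ± 17.7 CPM in Lepr+ HSC and 46.6 ± 13.4 in Lepr- HSC, and Ctnnal1 57.6 ± 15.5 and 64.7 ± 7.87. The part of the difference in the HSC marker sum in that of Gas6 was not tested. In MPP the same sum was 2349 ± 442 in Lepr+ and 2102 ± 214 in Lepr- libraries. Summed CPM of Flt3, Cd48 and Cd34, listed as MPP markers, was 242.3 ± 40.4 in Lepr+ HSC and 226.2 ± 19.0 in Lepr- HSC, and 1140 ± 195 in Lepr+ MPP and 1670 ± 252 in Lepr- MPP. Both cell types were sorted without surface CD48, so CD48 protein did not define the MPP of this sort. Lepr mRNA averaged 3.66 ± 4.604 CPM in Lepr+ HSC against 0.0448 ± 0.0718 in Lepr- HSC, and 23.3 ± 14.6 in Lepr+ MPP against 0.274 ± 0.380 in Lepr- MPP. Mean correlation with the other libraries of the group was lowest in Lepr+ MPP replicate 4, Lepr+ HSC replicate 5 and Lepr+ MPP replicate 5, at 0.815, 0.837 and 0.858.

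On GRCm38, Gas6 (ENSMUSG00000031451.6) lies on the minus strand of chromosome 8 from 13465374 to 13494490 and Pros1 (ENSMUSG00000022912.8) on the plus strand of chromosome 16 from 62854307 to 62929346. Axl (ENSMUSG00000002602.16) lies on the minus strand of chromosome 7 from 25757273 to 25788705. Mertk (ENSMUSG00000014361.5) and Tyro3 (ENSMUSG00000027298.17) share the plus strand of chromosome 2, from 128698956 to 128802894 and from 119797733 to 119818104. Exons of Gas6 and of the neighbouring Tmem255b on the other strand overlap by 34 bases, 1.33% of the exonic length of Gas6, and no other exon overlap was annotated for the 5 genes. The libraries kept no strand, so read pairs within those 34 bases cannot be told apart by strand.

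The 250 bases before the RefSeq start sites of both ligand genes (GRCm38.p6) are shown because these 2 genes differed most between the groups. Each reads 5′ to 3′ on the strand of its gene, Gas6 at chr8:13494536-13494785 on the minus strand and Pros1 at chr16:62854057-62854306 on the plus strand, and capitals mark motif matches.
Gas6: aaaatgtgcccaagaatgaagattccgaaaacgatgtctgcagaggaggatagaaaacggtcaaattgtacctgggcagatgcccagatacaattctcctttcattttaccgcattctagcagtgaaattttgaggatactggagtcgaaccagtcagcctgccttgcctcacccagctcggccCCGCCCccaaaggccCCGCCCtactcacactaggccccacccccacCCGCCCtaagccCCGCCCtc
Pros1: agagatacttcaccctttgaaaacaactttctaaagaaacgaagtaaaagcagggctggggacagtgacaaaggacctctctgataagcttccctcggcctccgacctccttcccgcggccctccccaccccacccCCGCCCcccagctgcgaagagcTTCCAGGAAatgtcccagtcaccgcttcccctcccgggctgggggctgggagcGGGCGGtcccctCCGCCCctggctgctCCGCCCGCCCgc
Both strands were searched for the GC box GGGCGG, the STAT motif TTCNNNGAA, the TATA box TATAAA, the CCAAT box CCAAT, the GATA motif AGATAA and the E-box CACGTG. The Gas6 window held 4 GC boxes, whose first bases lie 66, 51, 20 and 8 bases before the start, and none of the other motifs. The Pros1 window held 5 GC boxes, of which the last 2 overlap, and 1 STAT match that begins 92 bases before the start. Among 32851 RefSeq promoter windows of the same length, 32.7% held a GC box, 7.02% the STAT motif, 12.4% the TATA box, 33.8% the CCAAT box, 9.99% the GATA motif and 6.02% the E-box. Gas6 had 10 CpG dinucleotides in its window and Pros1 15, with a median of 6 over all windows.

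Gas6 was lowest in Lepr- HSC and highest in Lepr+ MPP. In Lepr+ HSC, its level in replicates 1 to 5 was 24.3, 31.96, 25.6, 17.0 and 44.3 CPM, against 10.2, 1.71, 3.46, 9.85 and 5.93 in Lepr- HSC. The groups do not overlap, and the lowest Lepr+ library stood above the highest Lepr- library. The means were 28.6 ± 10.2 CPM in Lepr+ HSC and 6.24 ± 3.79 in Lepr- HSC, a log2 fold change of 2.20 ± 0.41 (SE), higher in 5 of 5 pairs of libraries with the same replicate number. This difference is what selected the genes. It is given without a test, and for orientation 0.103% of 16509 genes were called in this contrast at an adjusted p under 0.05, while 0.999% did not overlap with Lepr+ HSC higher. The log2 fold change was 2.27 in the libraries dated June (replicates 1, 3 and 5) and 2.13 in those dated July (replicates 2 and 4).

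In MPP the mean of Gas6 was above that of HSC with the same Lepr status. Lepr+ MPP replicates 1 to 5 had 33.5, 56.6, 68.1, 75.1 and 44.2 CPM, against 32.5, 28.5, 21.1, 17.5 and 20.8 in Lepr- MPP. These groups do not overlap either, although Lepr+ MPP replicate 1 lay only just above Lepr- MPP replicate 1. The means were 55.5 ± 17.0 CPM in Lepr+ MPP and 24.1 ± 6.18 in Lepr- MPP, 2.30-fold higher, with a log2 fold change of 1.20 ± 0.40 and the same direction in 5 of 5 pairs. This contrast took no part in the choice of the genes, and over all genes it did not pass (edgeR quasi-likelihood test, Benjamini-Hochberg adjusted p = 0.423). Of all genes 1.19% did not overlap with Lepr+ MPP higher and 0.2% were called, so groups that do not overlap were more common here than calls. The log2 fold change was 0.96 in June libraries and 1.52 in July libraries.

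**Figure D1:**
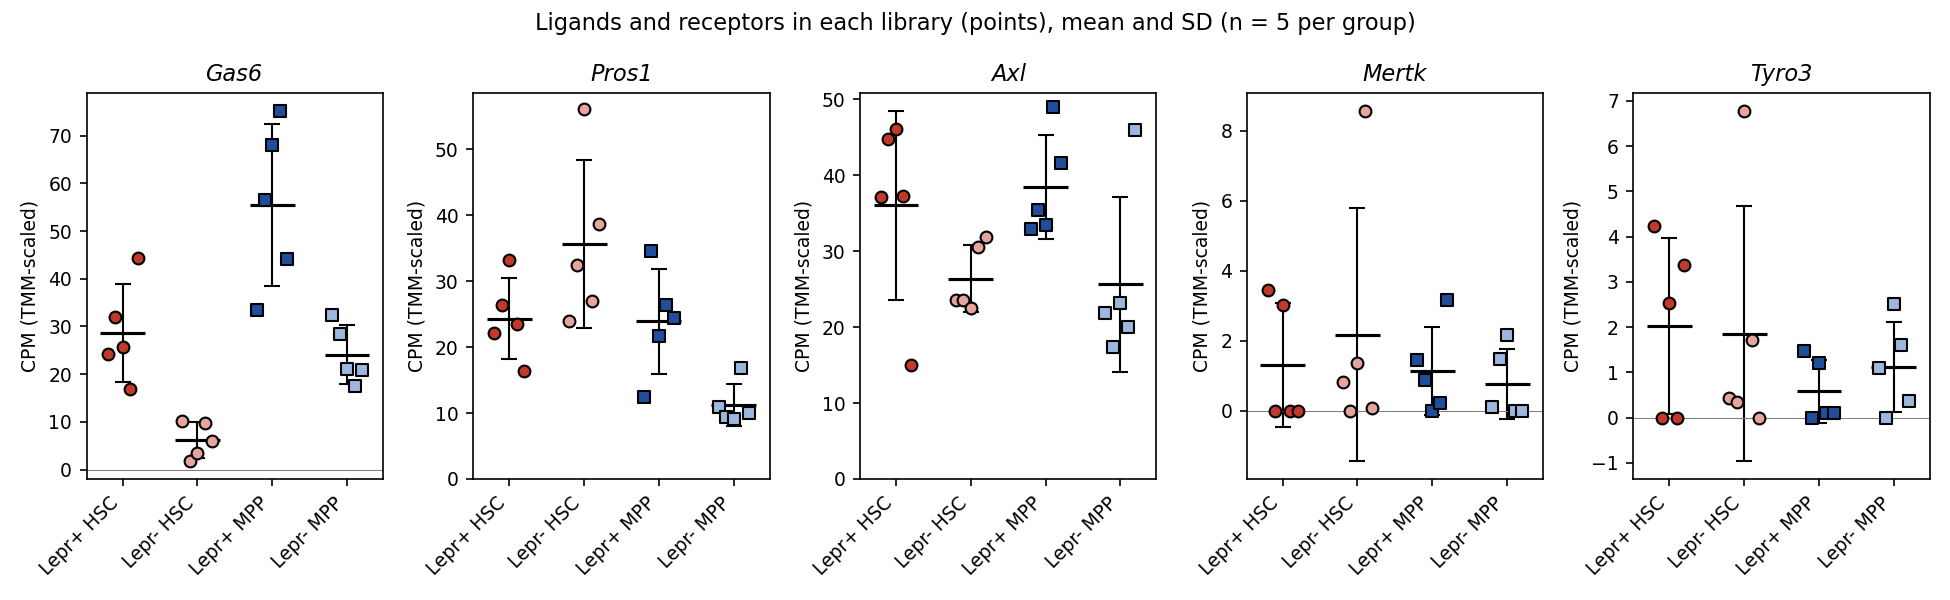
TMM-scaled CPM (y axis, linear) of Gas6, Pros1, Axl, Mertk and Tyro3 in each of the 20 libraries, by group (x axis), with points in replicate order, and with bars for the mean and SD of 5 libraries. Gas6 averaged 28.6 CPM in Lepr+ HSC and 6.24 in Lepr- HSC, whereas Mertk and Tyro3 stayed below 9 CPM in every library and were at 0 in several.

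Gas6 in Lepr- MPP was about as high as in Lepr+ HSC. Ordered by mean, the groups were Lepr+ MPP (55.5 CPM), Lepr+ HSC (28.6 CPM), Lepr- MPP (24.1 CPM) and Lepr- HSC (6.24 CPM). Lepr+ HSC and Lepr- MPP overlapped and their means differed by 4.54 CPM, less than the pooled SD of 8.45 CPM. Lepr+ MPP and Lepr+ HSC also overlapped, through Lepr+ HSC replicate 5 and Lepr+ MPP replicates 1 and 5. Lepr- HSC was the 1 group that overlapped with none of the others, and 3.43% of all genes had Lepr- HSC below Lepr- MPP without overlap. Lepr- HSC against Lepr- MPP gave a log2 fold change of -1.95 ± 0.41, and Lepr+ HSC against Lepr+ MPP one of -0.96 ± 0.39. These contrasts share libraries with the others, and both are descriptions, since the HSC libraries in them also served to choose the genes.

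Pros1, the other ligand, had the opposite order in cells without surface Lepr. Lepr- HSC replicates 1 to 5 had 23.98, 32.5, 56.1, 26.99 and 38.7 CPM, against 10.9, 9.44, 9.12, 16.8 and 10.03 in Lepr- MPP. The groups do not overlap, as held for 2.79% of all genes with Lepr- HSC higher, and replicate 3 was the highest library of Lepr- HSC. The means were 35.7 ± 12.7 CPM in Lepr- HSC and 11.3 ± 3.17 in Lepr- MPP, 3.17-fold higher in Lepr- HSC (log2 fold change 1.66 ± 0.31, edgeR adjusted p = 0.00391, 5 of 5 pairs). Of the 4 members tested in this contrast Pros1 was the 1 that passed, where 2.73% of all genes were called, 1.22% with Lepr- HSC higher and 1.51% with it lower. The call held without any 1 of the 10 libraries (adjusted p from 0.0028 to 0.0175) but not within June (1.98, adjusted p = 0.0771) or July alone (1.14, adjusted p = 0.963).

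With surface Lepr, the Pros1 levels of HSC and MPP lay together. Lepr+ HSC replicates 1 to 5 had 22.2, 26.4, 33.3, 23.4 and 16.4 CPM, against 12.5, 34.5, 21.7, 26.4 and 24.4 in Lepr+ MPP. The 2 groups overlapped almost fully, with means of 24.3 ± 6.18 CPM in Lepr+ HSC and 23.9 ± 7.97 in Lepr+ MPP (log2 fold change 0.03 ± 0.30, edgeR adjusted p = 0.997). In this contrast 0 of the 4 tested members were called by edgeR, 0 at an unadjusted p under 0.05 (7.89% of all genes), and 0 by DESeq2 or limma voom, with 0.466% of all genes called.

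Set against Lepr- cells of the same type, Pros1 in Lepr+ cells stood lower in HSC and higher in MPP. Lepr+ HSC were below Lepr- HSC in 5 of 5 pairs, with overlapping groups and a log2 fold change of -0.55 ± 0.30, for which no test is given. In MPP, Lepr+ libraries were above Lepr- libraries in 5 of 5 pairs, also with overlapping groups, at 23.9 ± 7.97 CPM against 11.3 ± 3.17 CPM (log2 fold change 1.09 ± 0.31). That difference did not pass in edgeR (adjusted p = 0.222) and passed in DESeq2 (adjusted p = 0.0199). The log2 fold change was 0.94 in June and 1.21 in July libraries. In Lepr+ against Lepr- MPP edgeR called 0 of the 5 members, with Gas6 and Pros1 at an unadjusted p under 0.05 as were 4.41% of all genes, DESeq2 called 1 and limma voom 0.

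Per kilobase of merged exons, the scale on which levels of different genes can be compared, Pros1 was the more abundant ligand transcript in Lepr- HSC and Gas6 in the other groups. Gas6 made up 64.0 ± 10.98% of the summed ligand level per kilobase in Lepr+ HSC, between 53.8% and 81.2%, against 22.8 ± 15.4% in Lepr- HSC, between 7.79% and 40.6%. It made up 78.7 ± 4.92% in Lepr+ MPP and 76.8 ± 8.34% in Lepr- MPP. The 5 Lepr- HSC libraries were the ones with more Pros1 than Gas6 per kilobase. Both ligands together came to 17.2 ± 3.53 CPM per kilobase in Lepr+ HSC and 11.2 ± 2.46 in Lepr- HSC, and to 27.6 ± 7.85 in Lepr+ MPP and 12.2 ± 2.17 in Lepr- MPP. These sums and shares contain the values by which the genes were chosen and carry no test.

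**Figure D2:**
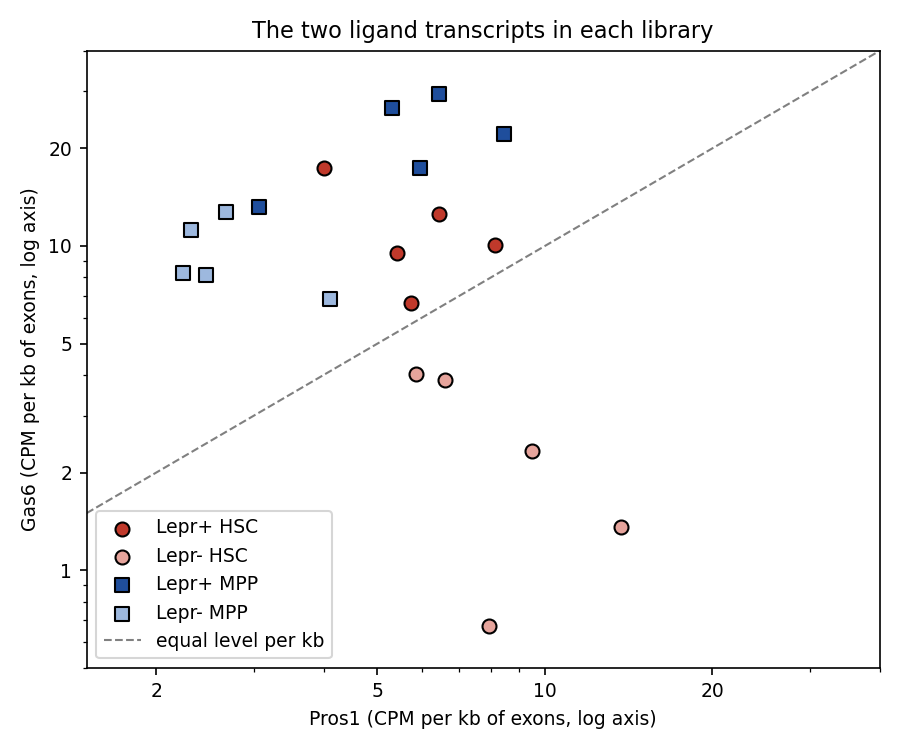
Gas6 (y axis) against Pros1 (x axis), both in CPM per kilobase of merged exons on log axes, for each of the 20 libraries, with a dashed line where the levels are equal. The 5 Lepr- HSC libraries lie below the line and the 15 others above it.

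Axl was the 1 TAM receptor with counts in all 20 libraries. Lepr+ HSC replicates 1 to 5 had 37.1, 44.7, 46.1, 37.3 and 15.03 CPM, against 23.5, 23.5, 22.5, 30.5 and 31.8 in Lepr- HSC. Without replicate 5 the Lepr+ HSC libraries lay above all Lepr- HSC libraries, and with it the groups overlap, so Lepr+ HSC was higher in 4 of 5 pairs. The means were 36.03 ± 12.4 CPM in Lepr+ HSC and 26.4 ± 4.405 in Lepr- HSC, with a log2 fold change of 0.45 ± 0.30. Without 1 library it ran from 0.35 to 0.65, the latter without Lepr+ HSC replicate 5.

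In MPP the Axl values had a similar layout. Lepr+ MPP replicates 1 to 5 had 32.9, 35.5, 33.4, 48.998 and 41.6 CPM, against 21.8, 17.4, 23.1, 20.01 and 45.9 in Lepr- MPP. Here Lepr- MPP replicate 5 was the exception, and the other Lepr- libraries lay below all Lepr+ libraries. The means were 38.5 ± 6.84 CPM in Lepr+ MPP and 25.6 ± 11.5 in Lepr- MPP, with a log2 fold change of 0.59 ± 0.30 (edgeR adjusted p = 1). Without 1 library it ran from 0.47 to 0.89. The latter, without Lepr- MPP replicate 5, did not pass either (edgeR adjusted p = 0.476). Both exceptions carry replicate number 5, and in that number alone the Lepr+ library had less Axl than the Lepr- library, in HSC and in MPP. Within June, which holds replicate 5, the log2 fold change was 0.23, and within July 1.18. HSC and MPP had near-equal means, with log2 fold changes of 0.04 ± 0.30 without and -0.09 ± 0.30 with surface Lepr (adjusted p = 0.988 and 0.997).

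Mertk and Tyro3 were at the edge of detection. Mertk had 87, 0, 104, 0 and 0 counts in Lepr+ HSC replicates 1 to 5, against 24, 0, 37, 100 and 1 in Lepr- HSC. In MPP it had 44, 23, 0, 2 and 28 counts in Lepr+ libraries, against 3, 39, 69, 0 and 0 in Lepr- libraries. Thus 7 of 20 libraries had no Mertk read pair, where a count of 0 allows up to 0.0932 to 0.315 CPM (3 counts, counting error only), while others of the same group held up to 104 counts. Tyro3 had 107, 0, 87, 0 and 32 counts in Lepr+ HSC against 13, 6, 184, 20 and 0 in Lepr- HSC, and 45, 0, 39, 1 and 1 counts in Lepr+ MPP against 29, 0, 80, 23 and 5 in Lepr- MPP. It was at 0 in 5 of 20 libraries.

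Group means of Mertk were 1.29 ± 1.78 CPM in Lepr+ HSC, 2.16 ± 3.62 CPM in Lepr- HSC, 1.13 ± 1.26 CPM in Lepr+ MPP and 0.752 ± 1.01 in Lepr- MPP. Those of Tyro3 were 2.02 ± 1.94, 1.86 ± 2.83, 0.580 ± 0.700 and 1.12 ± 1.00 CPM in the same order. For both genes every neighbouring pair of groups overlapped and the SD was as large as most means. SEs of their log2 fold changes ran from 1.55 to 1.79, too wide to read a direction, and no adjusted p of a test was under 0.867. Per kilobase, Axl made up 91.4 ± 8.13% of the receptor level in Lepr+ HSC, 88.4 ± 12.9% in Lepr- HSC, 95.5 ± 3.41% in Lepr+ MPP and 92.7 ± 5.94% in Lepr- MPP. It was never below 72.9% in a library.

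**Figure D3:**
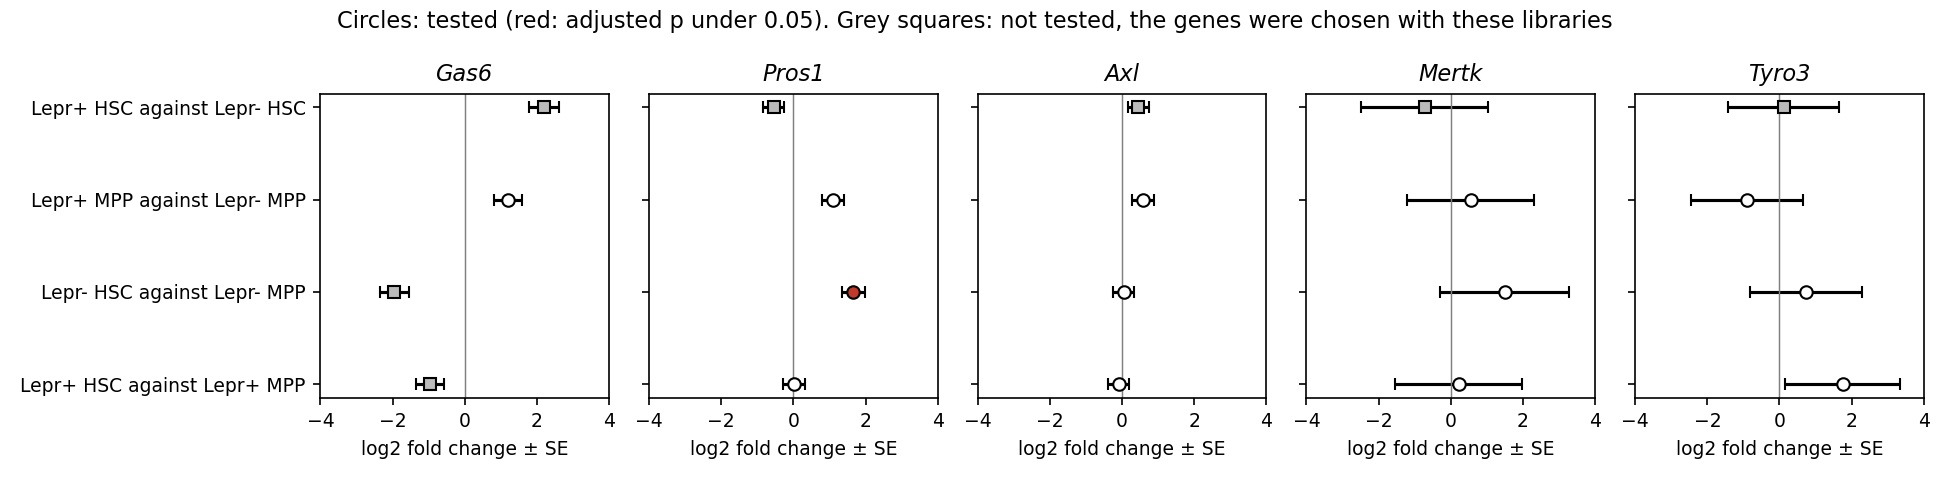
Log2 fold changes with their SE (x axis) of the 5 genes in 4 contrasts (rows), with the first-named group over the second. Circles were tested and red marks an adjusted p under 0.05, which holds for Pros1 in Lepr- HSC against Lepr- MPP (1.66), and grey squares are descriptions in libraries that served to choose the genes.

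Markers of marrow stroma, a known source of Gas6, were higher with surface Lepr in MPP. In bulk samples, fewer cells of a type and less RNA per cell cannot be told apart. The summed level of 16 stromal markers ran from 40.9 to 254.2 CPM in Lepr+ HSC (median 127.0) and from 23.8 to 255.3 CPM in Lepr- HSC (median 54.9). It ran from 159.3 to 3408 CPM in Lepr+ MPP (median 928.1) and from 56.5 to 89.6 CPM in Lepr- MPP (median 85.4). Of the 16 markers 13 had a positive log2 fold change in Lepr+ against Lepr- HSC, where 0 passed, and 15 in Lepr+ against Lepr- MPP, where 6 passed, against 0.2% of all genes. The list includes Lepr, whose protein defined the groups, so the direction of Lepr does not stand apart from the sort. Adipoq, Lum, Pdgfra and Ebf3 were at 0 in all Lepr- MPP libraries and Ebf3 in all Lepr- HSC libraries. Cxcl12, the chemokine of marrow stroma, averaged 30.8 ± 27.5 CPM in Lepr+ HSC and 1.80 ± 3.56 in Lepr- HSC, and 330.9 ± 212.1 in Lepr+ MPP and 1.15 ± 1.12 in Lepr- MPP.

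Gas6 did not follow the stromal sum in every library. In Lepr- cells Gas6 was 6.24 CPM in HSC and 24.1 CPM in MPP, at mean stromal sums of 84.3 and 77.6 CPM. The median sums were further apart, at 54.9 and 85.4 CPM, since the HSC mean holds 1 library at 255.3 CPM. Pdgfrb, on the stromal list, made up 41.6 CPM of that MPP mean and 3.46 CPM of that HSC mean. Lepr- HSC replicate 3 had the highest stromal sum of its group, 255.3 CPM, with 3.46 CPM of Gas6, while Lepr+ HSC replicate 4 had the lowest sum of its group, 40.9 CPM, with the lowest Gas6 of its group, 17.0 CPM. Lepr+ MPP replicate 5 had the highest sum of all, 3408 CPM, with 44.2 CPM of Gas6, whereas Lepr+ MPP replicate 1, at 159.3 CPM, had the least Gas6 of its group. In Lepr- HSC replicate 3 the collagen genes Col1a1 and Col1a2 had 112.4 and 66.7 CPM, while Cxcl12 was at most 8.16 CPM in that group. Col1a1 alone had 1829 CPM in Lepr+ MPP replicate 5. The 13 endothelial markers summed to 290.6 ± 71.9 CPM in Lepr+ HSC and 209.1 ± 32.4 in Lepr- HSC, and to 622.7 ± 259.6 CPM in Lepr+ MPP and 241.3 ± 63.6 in Lepr- MPP. The 5 plasma cell markers summed to 480.8 ± 253.8 CPM in Lepr+ HSC and 272.04 ± 79.7 in Lepr- HSC, and to 1531 ± 2077 CPM in Lepr+ MPP and 302.6 ± 46.7 in Lepr- MPP, where Lepr+ MPP had a median of 651.2 and, without replicate 4 (5193), a mean of 614.9. The part of these cells in the Gas6, Pros1 and Axl differences by surface Lepr was not tested.

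Macrophages and dendritic cells are known for TAM receptors. The 12 macrophage markers summed to 115.9 ± 40.5 CPM in Lepr+ HSC and 109.7 ± 48.6 in Lepr- HSC, and to 169.9 ± 64.2 CPM in Lepr+ MPP and 119.9 ± 21.8 in Lepr- MPP. None was at 0 in all libraries of a group, and Csf1r, the receptor of macrophage growth factor, averaged 6.01 ± 5.74, 8.58 ± 6.05, 10.1 ± 9.98 and 11.1 ± 6.76 CPM in the same order. The dendritic cell list holds Flt3, which is also an MPP marker, and its other 5 genes summed to 11.6 ± 10.1 CPM in Lepr+ HSC and 7.12 ± 5.49 in Lepr- HSC, and to 7.25 ± 5.09 in Lepr+ MPP and 11.3 ± 9.63 in Lepr- MPP, with overlapping ranges.

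Megakaryocyte markers, such as Pf4 and Itga2b, had mean sums in the same order of groups as Pros1. Their 9 genes summed to 2226 ± 543 CPM in Lepr+ HSC and 3951 ± 1074 in Lepr- HSC, and to 942.4 ± 219.0 CPM in Lepr+ MPP and 721.6 ± 156.9 in Lepr- MPP. Of the 7 with enough counts 4 passed in Lepr- HSC against Lepr- MPP, all higher in HSC, where 1.22% of all genes were called higher. Gp6 was at 0 in both of these groups. Lepr+ HSC and Lepr+ MPP had like Pros1 levels at sums whose ranges do not overlap, 1442 to 2842 CPM and 587.9 to 1169 CPM. The part of megakaryocyte transcripts in the Pros1 difference between Lepr- HSC and Lepr- MPP was not tested.

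**Figure D4:**
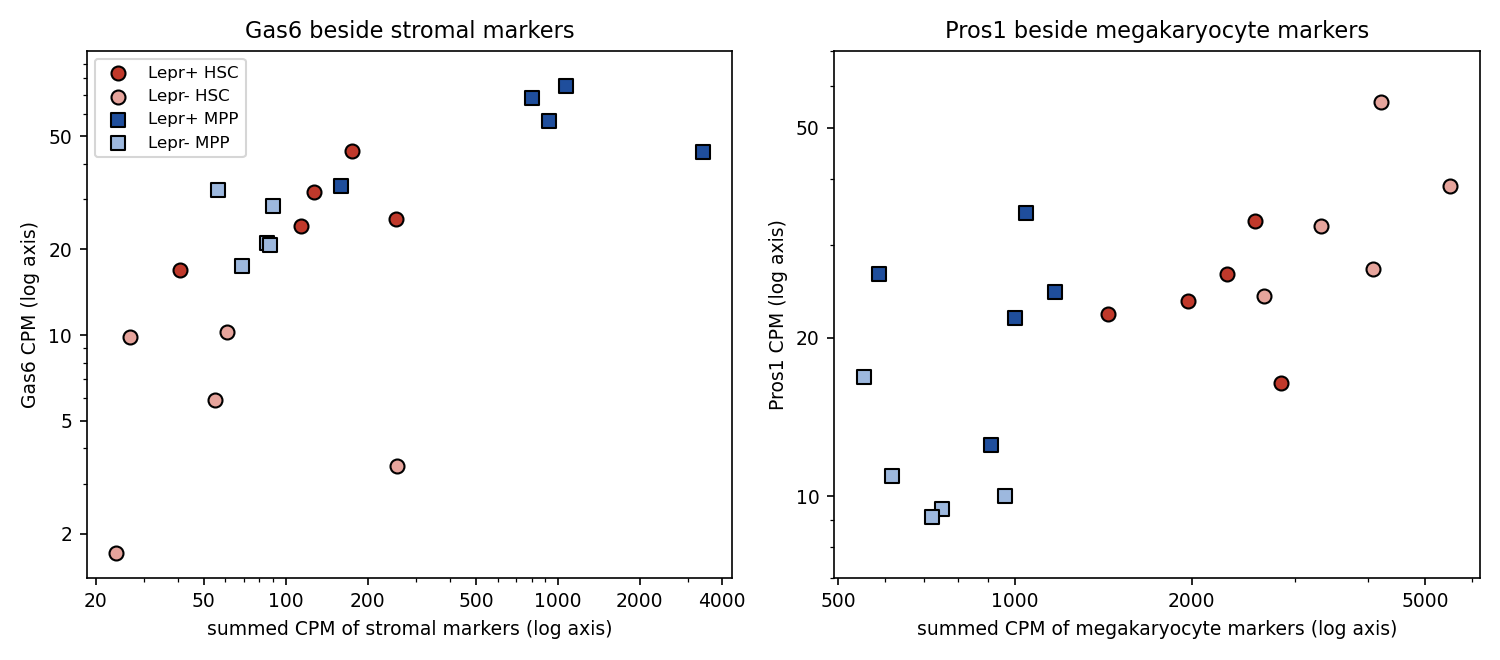
Gas6 against the summed CPM of 16 stromal markers (left) and Pros1 against that of 9 megakaryocyte markers (right), for each of the 20 libraries, in TMM-scaled CPM on log axes. Lepr- MPP had 17.5 to 32.5 CPM of Gas6 at stromal sums of 56.5 to 89.6 CPM and Lepr- HSC 1.71 to 10.2 CPM at sums of 23.8 to 255.3 CPM, and Lepr+ MPP had Pros1 levels like those of Lepr+ HSC at lower megakaryocyte sums.

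The genes most like Gas6 over the 20 libraries also had their highest mean in Lepr+ MPP and their lowest in Lepr- HSC. By Pearson correlation of log2 CPM among 10664 genes these were Limd2 (r = 0.897), Ypel3 (0.888), the lymphocyte GTPase gene Gimap1 (0.884), the lactate dehydrogenase gene Ldhb (0.880), the interferon gamma receptor chain Ifngr2 (0.865), Fam181b (0.865), the stem cell transcription factor Hlf (0.865), the lymphotoxin chain Ltb (0.863), Dkkl1 (0.854) and the ectonucleotidase Entpd1 (0.849). Hlf, for example, averaged 325.5 CPM in Lepr+ HSC and 153.7 in Lepr- HSC, and 504.3 in Lepr+ MPP and 410.5 in Lepr- MPP. No gene of the stromal and endothelial lists was among the 10. With 16 and 13 genes in these lists, that absence carries no information on cell source. The HSC libraries that served to choose Gas6 entered the ranking, and the cell source of the 10 genes was not tested. The libraries fall into 4 groups and share pools of mice, so these values describe shared group levels and carry no p.

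The 5 genes most like Pros1 had their highest mean in Lepr- HSC and their lowest in Lepr- MPP. They were Timp3, an inhibitor of matrix metalloproteinases (r = 0.885), the glutathione transferase Gstm2 (0.849), Exoc3l2 (0.813), Amotl2 (0.802) and the cyclooxygenase Ptgs1 (0.786). Timp3 averaged 38.9 CPM in Lepr+ HSC and 71.3 in Lepr- HSC, and 19.2 in Lepr+ MPP and 8.42 in Lepr- MPP. The genes most like Axl were Tinagl1 (0.803), Errfi1, a feedback inhibitor of the EGF receptor (0.794), the secreted glutathione peroxidase Gpx3 (0.789), S100a16 (0.771) and Fam241b (0.761). Errfi1 had 22.4 CPM in Lepr+ MPP and 1.08 in Lepr- MPP, Gpx3 89.97 and 2.45, and S100a16 22.6 and 0.978 in the same order, with 3.91, 12.7 and 1.54 CPM in Lepr+ HSC and 3.75, 5.25 and 0.662 in Lepr- HSC. None of the 5 is in the stromal or endothelial list, which carries no information with lists this short, and their cell source was not tested. Tinagl1 averaged 50.8 CPM in Lepr+ HSC and 19.7 in Lepr- HSC, and 36.7 in Lepr+ MPP and 13.6 in Lepr- MPP.

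Of 86 further genes of the pathway and its surroundings 73 had enough counts to be tested. By surface Lepr edgeR called none of these. In Lepr+ against Lepr- HSC edgeR, DESeq2 and limma voom called 0 of 73 (0.103%, 1.09% and 0.103% of all genes), with 7 at an unadjusted p under 0.05 in edgeR, where 6.96% of all genes were, and a list median log2 fold change of 0.04 against -0.0041 over all genes. In Lepr+ against Lepr- MPP edgeR called 0 and had 10 at an unadjusted p under 0.05, where 4.41% of all genes were, with a list median of 0.03 against 0.01. There DESeq2 called 4 (1.29% of all genes), the matrix Gla protein Mgp and the scavenger receptors Stab1, Stab2 and Cd36, and limma voom called 1, Mgp (0.327% of all genes). Mgp averaged 9.43 ± 5.36 CPM in Lepr+ MPP and 0.00629 ± 0.0141 in Lepr- MPP (edgeR adjusted p = 0.0834). In Lepr+ HSC against Lepr+ MPP edgeR and limma voom called 0, with 12 at an unadjusted p under 0.05 in edgeR, where 7.89% of all genes were, and DESeq2 called 3, F10, Itgb3 and Gas2l3. Of all genes limma voom called 0.721% and DESeq2 2.05% in that contrast.

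Between Lepr- HSC and Lepr- MPP edgeR called 5 of the 73, of which 3 were higher and 2 lower in HSC, and with the replicate number as a block 11 (4 higher and 7 lower). Of all genes 2.73% were called, and 7.5% with the block. At an unadjusted p under 0.05 edgeR had 13 of the 73, where 12.3% of all genes were. F10, coagulation factor X and like Gas6 a Gla protein, averaged 24.1 ± 14.2 CPM in Lepr- HSC and 0.341 ± 0.534 in Lepr- MPP (log2 fold change 6.18 ± 1.48, adjusted p = 0.0242). Its call was lost, at adjusted p from 0.0536 to 0.0739, without Lepr- HSC replicate 2, 3 or 4 or without Lepr- MPP replicate 1, 2, 3 or 5. Among the integrin chains that join bridging proteins to phosphatidylserine on dying cells, Itgb3 rose (145.5 ± 60.5 CPM in Lepr- HSC and 21.8 ± 12.5 in Lepr- MPP, adjusted p = 0.00112). Itgb5 fell (1.83 ± 2.18 CPM in Lepr- HSC and 48.8 ± 21.8 in Lepr- MPP, adjusted p = 0.0176), a call lost without Lepr- HSC replicate 2 or 3 (adjusted p = 0.0531 and 0.0567). Mfge8, a bridge for these integrins, had 168.3 ± 48.3 CPM in Lepr- HSC and 211.5 ± 25.4 in Lepr- MPP (adjusted p = 0.534).

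The type I interferon receptor, with which TAM receptors signal in dendritic cells, stood lower in Lepr- HSC than in Lepr- MPP. Ifnar2 fell to 63.2 ± 2.998 CPM in Lepr- HSC, against 125.5 ± 14.4 in Lepr- MPP (log2 fold change -0.99 ± 0.17, adjusted p = 0.00214). Ifnar1 had 51.8 ± 11.2 CPM in Lepr- HSC and 99.1 ± 10.99 in Lepr- MPP, and Socs3, a suppressor of cytokine signals, 3.22 ± 1.28 and 18.7 ± 9.34 CPM in the same order. Neither passed without the replicate block (adjusted p = 0.0631 and 0.0741) and both passed with it (0.0105 and 0.0170). With Lepr, Ifnar2 had 86.6 ± 12.4 CPM in HSC and 117.4 ± 31.5 CPM in MPP (adjusted p = 0.439). Gas2l3, which shares with Gas6 the name of growth arrest specific genes and no place in the pathway, had 63.7 ± 16.9 CPM in Lepr- HSC and 22.4 ± 7.71 in Lepr- MPP and rose (1.504 ± 0.33, adjusted p = 0.0117), and Gas5 of the same name list had 155.4 CPM per kilobase over all libraries. None of the 5 calls held within June or July libraries alone.

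None of the 6 genes of the vitamin K cycle, 8 tested genes of phosphatidylserine exposure, 2 sheddases or 22 signalling adaptors and kinases was called by edgeR in any of the 4 contrasts. With the replicate block Atp11b of the exposure list and Elmo1 and Plcg1 of the signalling list were among the genes that passed in Lepr- HSC against Lepr- MPP. Ggcx, the carboxylase that modifies Gla domains, averaged 35.7 ± 11.3 CPM in Lepr+ HSC and 26.05 ± 7.69 in Lepr- HSC, and 23.7 ± 12.1 in Lepr+ MPP and 24.02 ± 10.5 in Lepr- MPP. Per kilobase, the highest levels over all 20 libraries were those of Rac1 (119.5 CPM), a GTPase of engulfment, and the kinase Akt1 (75.6 CPM) among signalling genes, and of the scramblases Plscr3 (69.3 CPM) and Plscr1 (39.4 CPM). The sheddase Adam10, which releases TAM receptor ectodomains, had 41.7 CPM and Adam17 8.67 CPM, Calu and Nqo1 of the vitamin K list 39.5 and 15.3 CPM, Mfge8 43.5 CPM and Cd300a, a phosphatidylserine receptor, 17.97 CPM. Lgals3, reported elsewhere as a further TAM ligand, had 4.53 CPM per kilobase, and Tulp1 0.0380. The bone proteins Bglap and Bglap2 averaged 52.5 and 67.1 CPM per kilobase, almost all from Lepr+ MPP replicate 5, with 618.4 and 611.4 CPM. Without that library their Lepr+ MPP means were 2.50 and 1.84 CPM, against 125.7 and 123.7 CPM with it. These 2 genes are near copies of each other, so their split is uncertain.

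**Figure D5:**
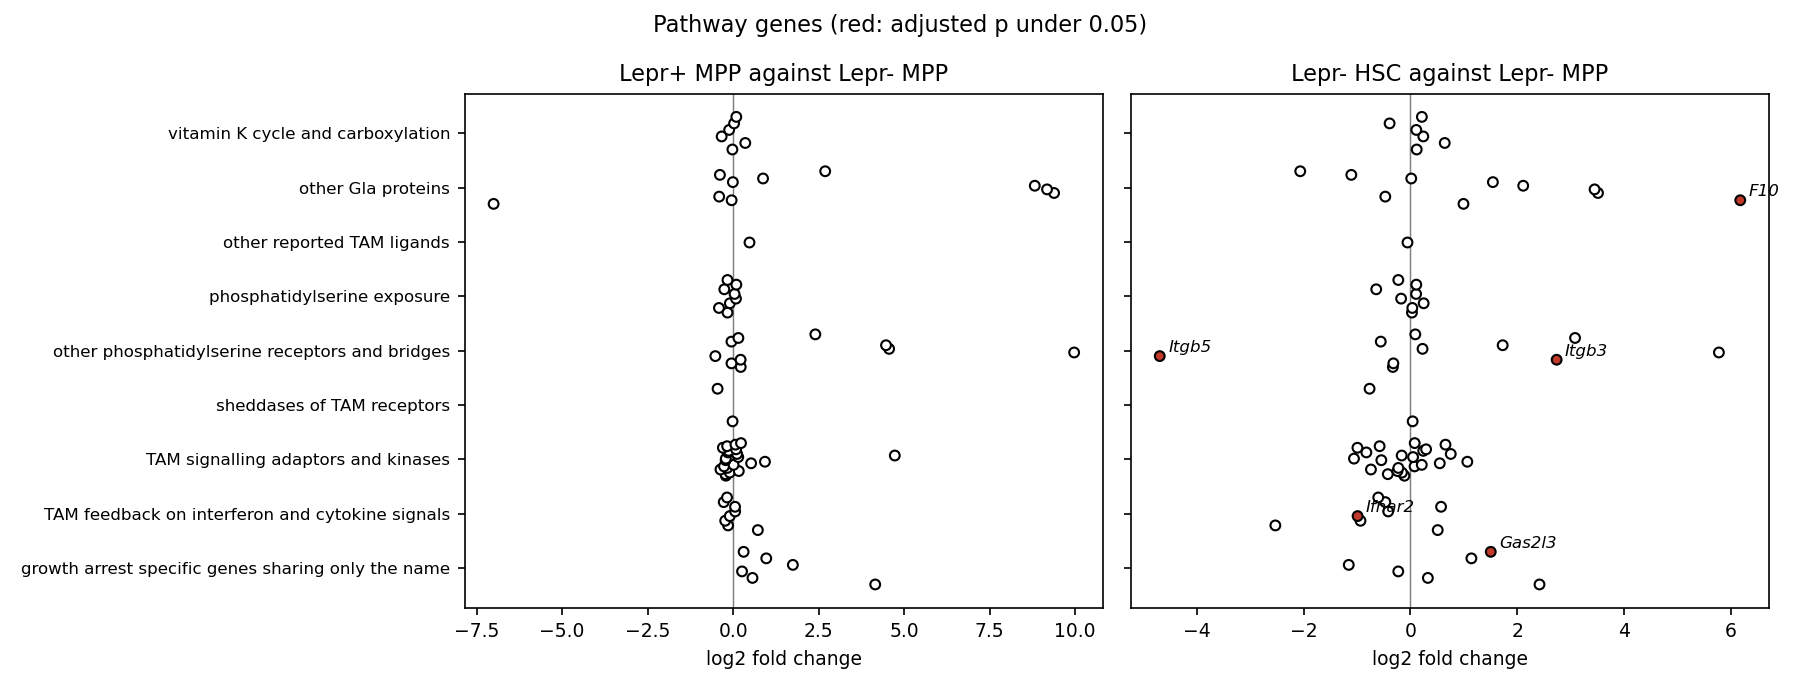
Log2 fold changes (x axis) of the 73 tested pathway genes by list (rows) in Lepr+ MPP against Lepr- MPP (left) and Lepr- HSC against Lepr- MPP (right), 1 point per gene, with an adjusted p under 0.05 in red. The 5 named genes at the right are the calls, and the left side has none.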

How the data were processed

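The authors deposited raw read-pair counts per gene, 1 table per library, made on GRCm38 with FastQC 0.11.8, cutadapt 2.1, STAR 2.7.1a and HTSeq 0.11.2, per the submitters' processing notes. Per the labels' protocols cDNA came from a SMART-Seq v4 kit and Nextera XT, which keep no strand. The counting mode is not given in the sources used here. Read pairs given to no gene (21.4% to 38.7% of all) were left out. GENCODE M21 matched 55480 of 55573 identifiers and gave symbols, positions and merged exon lengths.

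All 20 libraries entered 1 edgeR 4.0.16 quasi-likelihood fit on the deposited counts (R 4.3.3, TMM factors, low counts removed by filterByExpr at min.count 10 and min.total.count 15, robust, group as the only term). P-values are two-sided and Benjamini-Hochberg adjusted over 16509 genes, with a threshold of 0.05. The biological coefficient of variation was 0.747. Alternatives were RLE factors, no filter, DESeq2 1.42.0, limma voom (limma 3.58.1), fits on 2 groups, on 1 month, with the replicate block and without libraries.

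Each replicate number stands for 2 mice in the design text and has 1 date in the names of the deposited tables, so it was read as a pairing. Deviations from the group means correlated at a median of 0.264 (-0.0647 to 0.562) over 30 pairs of libraries with the same number and at -0.0857 over 120 pairs with different numbers. P-values measure the spread between pooled samples. Without molecular identifiers, the floors given for counts of 0 cover counting error only. What the dates mark is not given in the sources used here.

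The members and lists were chosen with earlier results of these data known. Named genes are the 5 members, pathway genes called in a contrast, the 2 of each list with the highest level per kilobase, and the 10 (Gas6) or 5 genes most like a member, among named genes of at least 5 CPM in a group. Ggcx, Mgp, Stab1, Stab2, Cd36, Socs3, Cxcl12, Col1a1, Col1a2, Pdgfrb, Slamf1, Ctnnal1, Csf1r, Lepr, Atp11b, Elmo1 and Plcg1 were named after their values were seen. Some genes of the lists are not reported here.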

Additional observations from a re-analysis of the deposited data

Results flagged for a closer look

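In 4 of 20 sets of 5 libraries 1 library lay apart from the others of its group. Its gap to the next library was over 0.71 of the range (Dixon's rule). For normally distributed values this rule flags about 1 in 20 by chance. The sets include Mertk and Tyro3, which had libraries without counts, so that rate may not hold and no excess over chance is read. Pros1 in Lepr- MPP replicate 4 had 16.8 CPM and the next highest library 10.9 CPM. Axl in Lepr- MPP replicate 5 had 45.9 CPM against 23.1 CPM in the next. Mertk in Lepr- HSC replicate 4 had 8.57 CPM against 1.36 CPM in the next, and Tyro3 in Lepr- HSC replicate 3 had 6.78 CPM against 1.71 CPM.

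Pros1 had differences of opposite sign with surface Lepr in HSC and MPP. Lepr+ minus Lepr- differed by -11.3 CPM on average in HSC, lower in 5 of 5 pairs, and by 12.6 CPM in MPP, higher in 5 of 5 pairs. The groups overlap in both, the HSC difference was not tested and the MPP difference did not pass (edgeR adjusted p = 0.222). The difference between the cell types was not tested, because the HSC libraries also served to choose the genes.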

How the results depend on the processing

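Gas6, Pros1 and Axl kept their direction by surface Lepr, in HSC and in MPP, under all 19 alternatives of each. In HSC this is no support, since these libraries served to choose the genes. For Gas6 the groups do not overlap in either cell type, so its sign could hardly change. Pros1 in Lepr+ against Lepr- MPP ranged from 0.91 to 1.27 without 1 library and passed with DESeq2 alone (1.11). Pros1 in Lepr- HSC against Lepr- MPP was called in 17 of 19, at 1.44 to 1.85 without 1 library, and not in June (1.98) or July (1.14), which hold fewer samples. Gas6 in Lepr+ against Lepr- MPP was called in none of its 19, at adjusted p from 0.117 to 1 and 1.07 to 1.34 without 1 library. Mertk and Tyro3 changed sign in 0 to 9 of 19, with 9 for Tyro3 in Lepr+ against Lepr- HSC, and the cause was not tested.

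Counts of called genes varied more. In Lepr+ against Lepr- HSC, 17 became 169 with the replicate block, 180 with DESeq2, 0 on these groups alone, 8 without the 3 libraries least like their groups, 0 in June, 0 in July and 0 to 24 without 1 library. In Lepr+ against Lepr- MPP, 33 became 17 with the block, 213 with DESeq2, 54 with limma voom, 16 on these groups alone, 0 without those 3 libraries, 0 in June, 0 in July and 4 to 49 without 1 library. In Lepr- HSC against Lepr- MPP, 451 became 1238 with the block, 839 with DESeq2, 768 without those 3 libraries, 81 in June, 0 in July and 301 to 462 without 1 library. In Lepr+ HSC against Lepr+ MPP, 77 became 293 with the block, 338 with DESeq2, 119 with limma voom, 4 on these groups alone, 0 in June, 0 in July and 28 to 94 without 1 library. Counts moved by over 1.5 times without Lepr+ HSC replicate 5 or Lepr- HSC replicate 2, 3, 4 or 5 in the first contrast, without any library but Lepr+ MPP replicate 1 in the second, and without Lepr+ HSC replicate 2 or 4 or Lepr+ MPP replicate 2 in the last. The cause was not tested. The block changed no call of the 5 members. Of the genes most like Gas6, Pros1 and Axl, 4 of 10, 3 of 5 and 3 of 5 were also in the list by Spearman correlation. No mean level moved by as much as its SD with RLE or unscaled library sizes. Counts of 0 limit what can be read of Mertk and Tyro3.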
